A study of Homo sapiens with 46 samples.

Results

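Undifferentiated human pluripotent stem cells (hPSC) of the H1 line were split into fractions, and the nucleoplasm, the soluble part of the nucleus, was compared with the cytoplasm. The members are 6 of the 46 libraries of the series, the 3 nucleoplasm and the 3 cytoplasm libraries of the hPSC, taken by their labels and by the matching columns of the hPSC count table. H1 is an established embryonic stem cell line, so every library stands for 1 line, and the labels of these libraries name no treatment. The design text of the series speaks of actinomycin D, a transcription blocker, which their labels do not mention. The cells were opened with a mild detergent, the supernatant over a sucrose cushion was kept as cytoplasm, the pelleted nuclei were lysed with more detergent, urea and salt, and the supernatant of that step was kept as nucleoplasm, with the pellet as chromatin. The RNA polymerase inhibitor α-amanitin was in the buffers of both fractions. The hPSC nucleus and chromatin libraries, 3 of each, entered the model and are used here only for levels. The replicates are numbered in the labels, and nothing says that they came from separate cultures, so p-values measure the spread between these libraries, which may be technical.

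An mRNA is made and spliced in the nucleus, leaves through nuclear pores and is translated in the cytoplasm. mRNAs of secreted and membrane proteins are translated on the endoplasmic reticulum (ER), whose membrane is continuous with the outer nuclear envelope, after the signal recognition particle binds a hydrophobic stretch near the start of the new protein. Mitochondria transcribe their own small genome inside the organelle, and long noncoding RNAs such as MALAT1 and NEAT1 are known to stay in the nucleus.

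The nucleoplasm libraries held 12549571, 14029731 and 14053066 counts, and the cytoplasm libraries 8329295, 14962624 and 15073269. Levels are given as CPM, each library's counts scaled to the same total over Ensembl genes (over all counts for single transcripts). The nucleoplasm libraries were alike (Pearson r of log2 CPM across genes from 0.985 to 0.988). Cytoplasm replicate 1 stood apart: it correlated at 0.967 or a little above with the other cytoplasm libraries, which reached 0.988 with each other, and its depth was the lowest. Against the mean of the other cytoplasm libraries, its genes with the shortest transcripts were higher (median log2 difference 0.34) and those with the longest lower (median -0.41), so counts that lead a result are also given without it. The pluripotency genes were present in both fractions: POU5F1, SOX2, LIN28A and DNMT3B were all at 199 CPM or higher in each of the 6 libraries. Of 10 ectoderm, 10 endoderm and 10 mesoderm markers, 4, 2 and 4 were in the table at all.

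The split between higher and lower genes depended on the scaling. Of 13987 genes tested with edgeR's quasi-likelihood test, 3754 were higher in nucleoplasm (26.8%) and 3836 lower (27.4%) at a Benjamini-Hochberg adjusted p under 0.05, which together is 54.3% of the genes tested. The median gene changed by -0.01 on the log2 scale, and the 6 libraries did not overlap between the groups for 65.2% of genes. The sizes were not symmetric: 848 called genes were 4-fold or more higher in nucleoplasm and 51 were 4-fold or more lower, and at 8-fold these counts were 178 and 5. Leaving out cytoplasm replicate 1 gave 3538 higher and 3327 lower. With the authors' TPM values (a unit scaled for transcript length and depth) in place of counts, 4695 genes were higher and 2211 lower, so the higher genes made up 68% of the calls in place of 49.5%, and the median gene moved by 0.22. Leaving the mitochondrially encoded genes out of the scaling moved the median by 0.12 and gave 4373 higher and 3112 lower. Library totals without TMM gave 3364 higher and 4231 lower, and upper-quartile scaling 3402 and 4317. The direction of changes near 0, and of list medians near 0, therefore depends on the scaling. Single genes and lists can move by more than the median gene does: CCNB1 went from -0.28 to 0.02 on the TPM scale.

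The 8 coding starts below are shown because mRNAs with hydrophobic codons near the start were more frequent among those higher in nucleoplasm, a pattern seen in these same data. The first 4 belong to mRNAs that were higher in nucleoplasm: HSPA5 (the ER chaperone BiP), CANX (calnexin, an ER lectin chaperone), CDH1 (E-cadherin) and PODXL (podocalyxin, a surface sialomucin of pluripotent cells). The last 4 belong to mRNAs that were lower: RPS12 (a protein of the small ribosomal subunit), PSMB6 (a catalytic proteasome subunit), POU5F1 (OCT4, the pluripotency factor) and SEC61B (a small subunit of the ER translocon that is inserted by its tail). Each is the first 90 coding bases of the gene's most abundant listed transcript, read 5′ to 3′ from GRCh38 with GENCODE 29. Capitals mark the 8 codons, among codons 2 to 30, that hold the most codons with T as the middle base. Such codons encode only the hydrophobic residues phenylalanine, leucine, isoleucine, methionine and valine.
HSPA5: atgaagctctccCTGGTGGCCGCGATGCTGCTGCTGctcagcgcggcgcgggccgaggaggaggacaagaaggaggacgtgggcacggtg
CANX: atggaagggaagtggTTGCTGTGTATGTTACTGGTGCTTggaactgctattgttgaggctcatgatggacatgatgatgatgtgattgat
CDH1: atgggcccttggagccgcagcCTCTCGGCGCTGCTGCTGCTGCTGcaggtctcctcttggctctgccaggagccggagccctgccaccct
PODXL: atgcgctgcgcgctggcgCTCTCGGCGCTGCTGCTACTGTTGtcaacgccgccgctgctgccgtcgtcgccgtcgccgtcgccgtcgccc
RPS12: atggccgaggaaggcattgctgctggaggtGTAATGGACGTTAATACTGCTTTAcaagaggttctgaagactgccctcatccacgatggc
PSMB6: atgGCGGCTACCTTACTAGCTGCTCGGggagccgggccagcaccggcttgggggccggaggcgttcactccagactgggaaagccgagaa
POU5F1: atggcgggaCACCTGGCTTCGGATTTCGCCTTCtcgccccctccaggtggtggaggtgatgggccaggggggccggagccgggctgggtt
SEC61B: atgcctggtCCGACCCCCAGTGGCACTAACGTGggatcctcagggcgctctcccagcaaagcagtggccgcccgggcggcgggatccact

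The marked window held 6 such codons in HSPA5, CDH1 and PODXL and 7 in CANX. It held 4 in RPS12, 3 in POU5F1, 2 in PSMB6 and 1 in SEC61B. All 8 stretches are coding exon sequence. Those of HSPA5 (chr9:125241037-125241126, minus strand), CANX (chr5:179705682-179705771, plus strand), PODXL (chr7:131556270-131556359, minus strand), PSMB6 (chr17:4796195-4796284, plus strand) and POU5F1 (chr6:31170531-31170620, minus strand) lie within 1 exon. Those of CDH1 (chr16:68737416-68738338), RPS12 (chr6:132814769-132815047) and SEC61B (chr9:99222364-99222632), all on the plus strand, run over 2 exons, and the coordinates span the intron between them.

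Over 10329 protein-coding genes with such a coding start, the change between the fractions was larger where the best window held 6 or more such codons. The median log2 change lay between -0.14 and -0.22 for genes whose best window held 0 to 4 such codons, and it was 0.05 at 5, 0.89 at 6 (721 genes), 1.46 at 7 (355 genes) and 1.49 at 8 (68 genes). Of the 1144 genes with 6 or more, 11.1% of all, 761 were called higher in nucleoplasm (66.5%) and 121 lower (10.6%). Among the 9185 genes with 5 or fewer, 1848 were called higher (20.1%) and 3194 lower (34.8%). Read from the other side, 48.7% of the 597 genes that were called and 4-fold or more higher in nucleoplasm had such a start, against 4.38% of the 1028 genes that were called and 2-fold or more lower. The codons were counted in frame on the coding strand only, and a match is a description of letters, not a signal sequence shown to act.

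Transcript length moved with the same change. In 6 groups of protein-coding genes ordered by the length of their most abundant listed transcript, the median log2 change was -0.88 in the shortest (161 to 1488 bases), then -0.49, -0.21, -0.04 and 0.19, and 0.46 in the longest (5157 to 34526 bases). In the shortest group 64.7% of genes were lower in nucleoplasm and 10.2% higher, and in the longest 6.35% were lower and 49.1% higher. Cytoplasm replicate 1 itself tilted by length, as given above, and the part of that tilt in these medians was not tested. Within each range of length the coding start still divided the genes. For transcripts up to 2170 bases the median was 0.45 with 6 or more such codons and -0.72 with fewer. For transcripts of 2171 to 3773 bases it was 1.15 against -0.17, and for longer ones 1.67 against 0.25. Genes within a group share libraries and are not replicates, so no test goes with these medians.

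**Figure D1:**
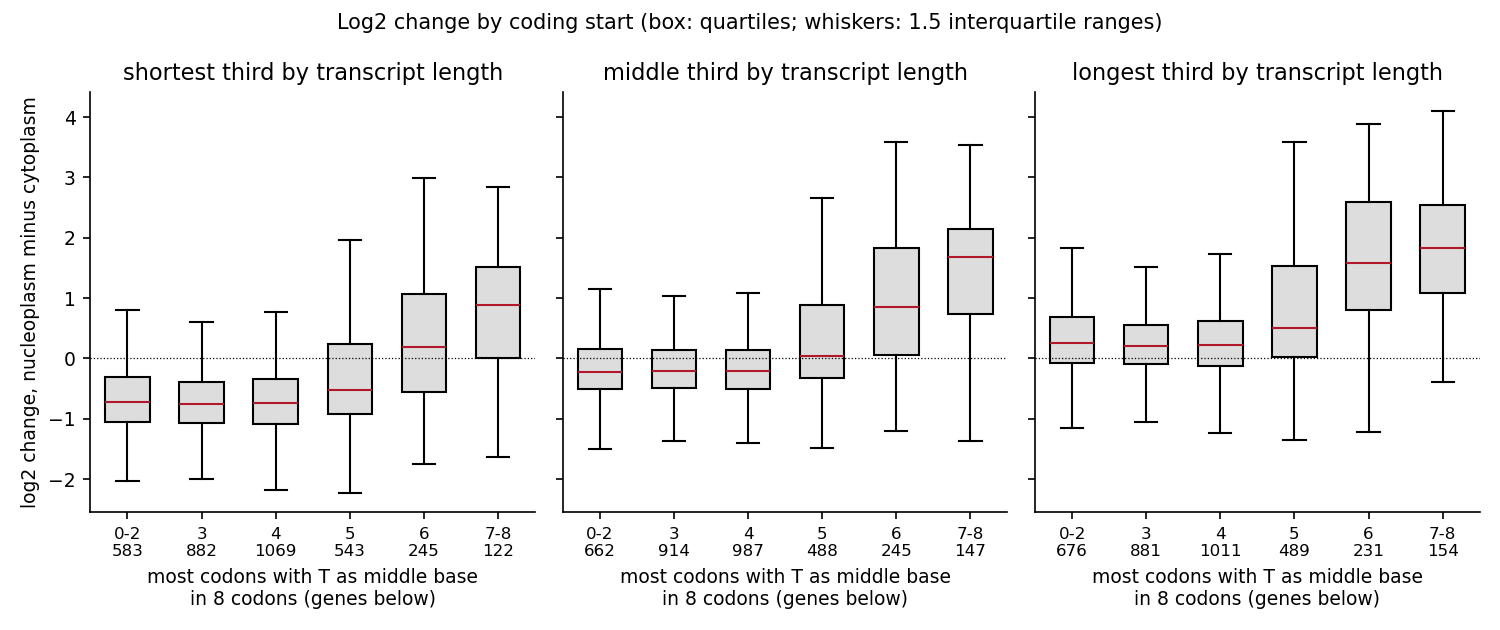
Log2 change between nucleoplasm and cytoplasm (edgeR) for protein-coding genes by the most codons with T as middle base in any 8 codons at the coding start, in 3 ranges of transcript length, with the number of genes under each box, quartiles as boxes and whiskers to 1.5 interquartile ranges. In the shortest range the median goes from -0.72 at 0 to 2 such codons to 0.88 at 7 or 8, and in the longest from 0.26 to 1.82.

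Matrix protein mRNAs were higher in nucleoplasm without exception. All 34 tested genes for extracellular matrix proteins were called higher in nucleoplasm, with a median log2 change of 3.31 (background 26.8% higher), and all 34 were called in each of the 6 leave-one-out fits (33 on the TPM scale). Summed over the list, the nucleoplasm libraries held 7315, 7766 and 7707 CPM and the cytoplasm libraries 941, 1018 and 1151. No library of one fraction came near the range of the other. FREM2 (GRCh38 chr13:38687129-38887131), a basement membrane protein, had the largest change of the list, at 238, 243 and 251 CPM in nucleoplasm and 9.21, 11.2 and 14.3 in cytoplasm. Its log2 change was 4.47 (SE 0.37, edgeR adjusted p 3.02e-07). FBN2 (a fibrillin of elastic microfibrils), VCAN (versican, a matrix proteoglycan) and FN1 (fibronectin) were close to it, with log2 changes of 4.18, 4.08 and 3.92. FN1 stood at 255, 270.0 and 279.7 CPM against 13.7, 20.3 and 22 in cytoplasm. The most abundant members were COL1A1 (the fibrillar collagen chain), AGRN (agrin), COL18A1 and FRAS1, at 806 ± 58.2, 763 ± 63.3, 705 ± 33.1 and 609.9 ± 19.6 CPM in nucleoplasm (SD, n = 3). Their cytoplasmic means were 85.7, 126, 107 and 62.8 CPM.

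Adhesion receptors were also on the nucleoplasm side. Of 30 integrins and cadherins, 29 were called higher (96.7%, beside 26.8% over all genes) and 1 lower (3.33%, beside 27.4%), with a median of 2.73. CDH1, which joins epithelial cells and pluripotent cells to each other, was at 872, 894 and 858 CPM in nucleoplasm and 52.9, 66.6 and 86.3 in cytoplasm (log2 change 3.76, SE 0.16, edgeR adjusted p 1.59e-09). ITGB1, the common β1 integrin chain, was at 512 ± 15.7 CPM against 91.6 ± 14.8 (SD, n = 3), and FAT1, a giant protocadherin, at 500.2 ± 13.7 against 46.2 ± 7.77. CDH3 (P-cadherin) was higher by 3.02. The exception was ITGAE, an integrin α chain best known from lymphocytes, at 9.33, 12.9 and 7.69 CPM in nucleoplasm and 28.2, 23.9 and 19.2 in cytoplasm, with a log2 change of -1.19 (SE 0.22, edgeR adjusted p 0.000553). Other surface or secretory-route proteins with large rises were IGF2R (a lysosomal sorting receptor), NOTCH2 (a signalling receptor), LAMC1 (a laminin chain) and CPD (a carboxypeptidase of the Golgi), at 3.91, 3.90, 3.90 and 3.83. These 4 were picked after their values were seen.

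The ER's own machinery was called in both directions. Of 40 genes, 28 were higher in nucleoplasm (70%, beside 26.8% over all genes) and 4 lower (10%, beside 27.4%), with a median of 1.87. The list summed to 13321, 13453 and 13109.6 CPM in nucleoplasm and 4028, 4081 and 4123 in cytoplasm. HSPA5 was at 912, 901 and 905 CPM in nucleoplasm and 83.7, 90.6 and 99.3 in cytoplasm. Its log2 change of 3.39 (SE 0.14, edgeR adjusted p 1.59e-09) was the largest of the list. Other chaperones and folding enzymes were also high: PDIA4 changed by 3.12, CANX by 3.11, HSP90B1 (GRP94) by 3.10, PDIA3 (a disulfide isomerase) by 3.02 and CALR (calreticulin) by 2.61, each on the log2 scale. The 4 lower genes were SEC61B (-1.15), SEC61G (-1.06), SRP14 (-1.13) and SRP68 (-0.32). SEC61B and SEC61G encode tail-inserted translocon subunits, and SRP14 and SRP68 encode proteins of the signal recognition particle, which is made in the cytosol and nucleolus. SRP9, SRP19, SRP54 and SRP72, listed proteins of the same particle, were not called lower. SEC61B stood at 44, 39.5 and 42.2 CPM in nucleoplasm and 133, 80.2 and 76.5 in cytoplasm (SE 0.26, edgeR adjusted p 0.0018). RN7SL1, the RNA of the same particle, was not called: 460.1, 1496 and 994 CPM against 879.9, 1065 and 534 (log2 change 0.32, SE 0.45, adjusted p 0.576).

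The sterol pathway was called in both directions too. Of 28 genes for cholesterol synthesis and uptake, 15 were higher in nucleoplasm, 5 lower and 8 not called, with a median of 0.87. The shares were 53.6% higher and 17.9% lower, beside 26.8% and 27.4% over all genes. NPC1, the lysosomal cholesterol transporter, was at 62.5, 56.3 and 61.3 CPM in nucleoplasm and 8, 7.45 and 9.79 in cytoplasm (log2 change 2.91, SE 0.15, edgeR adjusted p 4.49e-09). The genes on the other side were PMVK (-1.21), MVD (-0.91), FDPS (-0.90), ACAT2 (-0.80) and FDFT1 (-0.76). PMVK, MVD, FDPS and ACAT2 encode soluble enzymes of the early steps, and FDFT1 is squalene synthase, an ER enzyme held by its tail. HMGCS1, MVK and IDI1, other soluble enzymes of the early steps on the list, were not called lower.

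The mitochondrially encoded RNAs had the highest median of the lists. All 13 mitochondrially encoded mRNAs were higher in nucleoplasm, by a median log2 change of 5.10, and so were both mitochondrial ribosomal RNAs. Mitochondrially encoded genes made up 11.3%, 12.2% and 11.8% of the counts in the nucleoplasm libraries and 0.621%, 0.441% and 0.576% in the cytoplasm libraries. MT-CO1, a core subunit of cytochrome c oxidase, was at 30111, 30882 and 34023 CPM in nucleoplasm and 1968, 1217 and 1615 in cytoplasm (log2 change 4.36, SE 0.22, edgeR adjusted p 3.87e-09). The mRNAs were not shifted equally. MT-CO3 had the smallest change (4.15), the subunits of complex I ran from MT-ND4 (4.35) to MT-ND4L and MT-ND5 (both 5.99), and MT-ATP8 had the highest (7.22). For MT-ATP8 the nucleoplasm libraries held 31.4, 187 and 26.8 CPM and the cytoplasm libraries 0.121, 0.664 and 0.792, so nucleoplasm replicate 2 was far above the others. MT-ND4L (275, 1285 and 247 CPM) and MT-ND3 (759, 1879.6 and 621) had the same high library. Without it these 3 log2 changes were 5.72, 4.77 and 4.94, and all 3 were called. On the TPM scale MT-ATP8 was not called (limma adjusted p 0.103). MTCO1P12, a chromosome 1 pseudogene nearly identical to MT-CO1, was higher by 4.79 and cannot be told from its source by reads they share.

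Mitochondrial RNA is made and kept inside mitochondria, and the matrix and adhesion lists, like most of the ER list, encode proteins made at the ER. Both sets were far higher in the fraction labelled nucleoplasm, and higher still in the nucleus libraries for the ER list (17118 ± 1083 CPM), the matrix list (13905 ± 2027) and the mitochondrial mRNAs (119982 ± 10595; SD, n = 3). In chromatin these lists summed to 8821 ± 833, 8702 ± 1335 and 43457 ± 5054 CPM. What part mitochondria or ER carried along with the nuclei had in these values was not tested. The 3 comparisons with cytoplasm share its libraries.

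**Figure D2:**
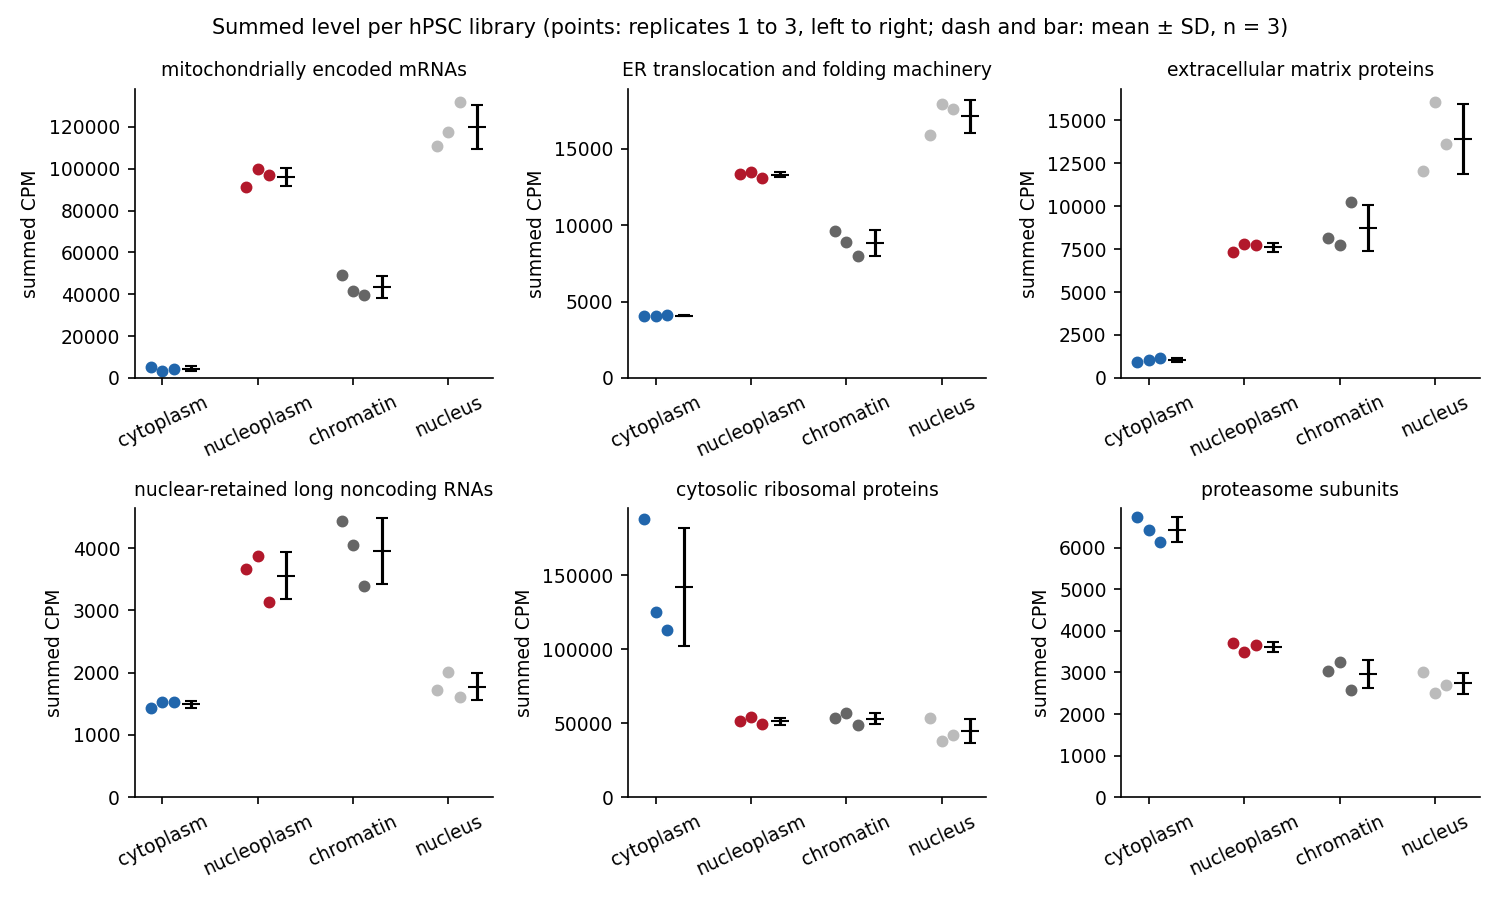
Summed CPM of 6 gene lists in each hPSC library (points, replicates 1 to 3 from left to right) with the mean and SD beside them, by fraction, on linear axes that start at 0. The mitochondrial mRNAs sum to at most 5444 CPM in cytoplasm and at least 91308 in nucleoplasm, while cytosolic ribosomal proteins sum to at least 113102 in cytoplasm and at most 53906 in nucleoplasm, and cytoplasm replicate 1 is the high point of that panel.

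mRNAs of the ribosome and of translation were on the cytoplasm side. Of 79 cytosolic ribosomal protein genes, 78 were lower in nucleoplasm (background 27.4% lower) and 1 was not called, with a median log2 change of -1.43. They summed to 51283, 53906 and 49234 CPM in nucleoplasm and 187841, 125318 and 113102 in cytoplasm. Cytoplasm replicate 1 was the highest, and without it 78 were again called lower, with a median of -1.08. RPS12 (chr6:132814441-132817564) had the largest fall of the list, at 475, 457 and 437 CPM in nucleoplasm and 3024, 1674 and 1426 in cytoplasm (log2 change -2.12, SE 0.29, edgeR adjusted p 3.78e-05). Among the most abundant members, RPS2, RPL3, RPLP0 and RPL13A changed by -1.62, -1.26, -1.53 and -1.29 on the log2 scale. The 1 gene not called was RPS29, at 101, 316 and 90.6 CPM in nucleoplasm and 547, 298 and 199 in cytoplasm, where nucleoplasm replicate 2 lay inside the cytoplasm range (adjusted p 0.0753). Of the translation factors, 21 of 35 were lower (60%, beside 27.4% over all genes) and 2 higher (5.71%, beside 26.8%), with a median of -0.53. EEF1A1, the tRNA-delivering elongation factor, stood at 11924 ± 754 CPM against 22711 ± 2713 (SD, n = 3, log2 change -0.85). EIF3K had the largest fall (-1.46). EIF3A and EIF4G1, the large scaffold subunits of initiation, were the 2 higher ones, at 0.72 and 0.52. The call for EIF3A was lost without nucleoplasm replicate 1 (adjusted p 0.0635), nucleoplasm replicate 2 (0.0585) or cytoplasm replicate 1 (0.0853).

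Nuclear-encoded subunits of the respiratory chain lay on the other side from the mitochondrially encoded ones. Of 74 respiratory chain subunits encoded in the nucleus, 64 were lower in nucleoplasm, 0 higher and 10 not called, with a median of -1.09. The lower share was 86.5%, beside 27.4% over all genes. Without cytoplasm replicate 1 the calls were 53 lower and 2 higher. COX7C, of complex IV, was at 246, 314 and 229.9 CPM in nucleoplasm and 1176, 562 and 477 in cytoplasm (log2 change -1.45, SE 0.31, edgeR adjusted p 0.00137), while MT-CO1 was higher by 4.36. For COX7C the change was -0.84 without cytoplasm replicate 1. NDUFB2, a small complex I subunit, had the largest fall (-1.90), and ATP5F1B, the catalytic β subunit of ATP synthase, fell by 0.79. Of 32 proteasome subunits 25 were lower (78.1%, beside 27.4% over all genes) and 0 higher (median -0.77). They were led by PSMB6, at 103, 101 and 98 CPM in nucleoplasm and 350.0, 269 and 243 in cytoplasm (-1.46, SE 0.18, edgeR adjusted p 1.37e-05). Glycolytic enzymes were lower in 13 of 17 cases (76.5%, beside 27.4% over all genes), among them GAPDH (-0.94) and TPI1 (-1.12), with HK2 the 1 higher gene (0.55). On the TPM scale 5 of the glycolytic genes were called in place of 14.

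**Figure D3:**
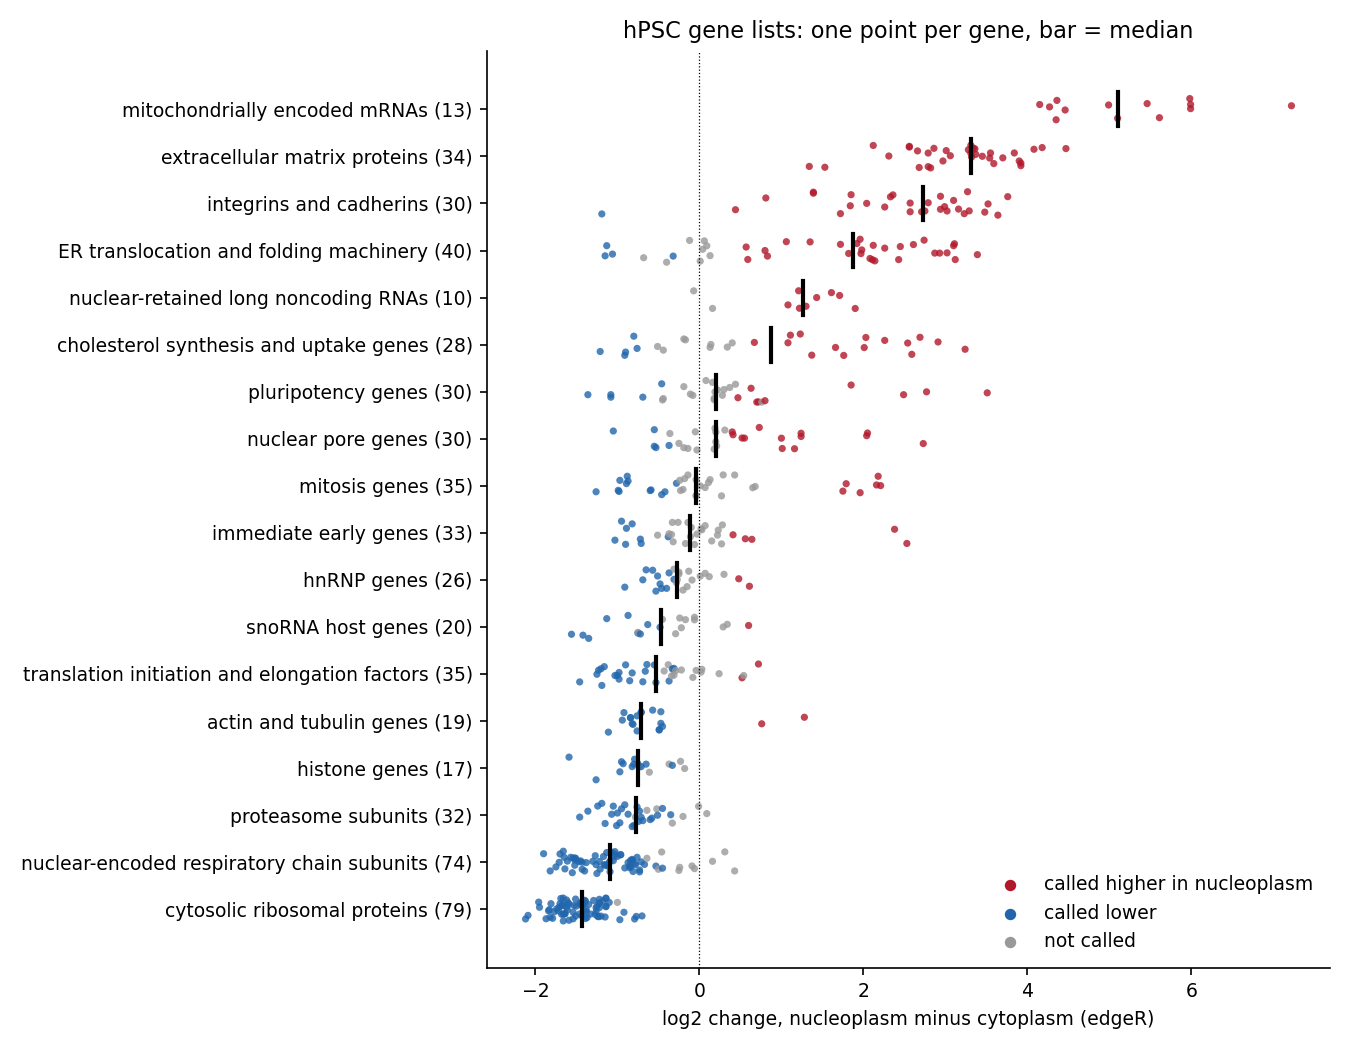
Log2 change between nucleoplasm and cytoplasm for every tested gene of 18 lists (1 point a gene, number of genes in brackets, black bar at the median), red where called higher, blue where called lower and grey where not called. The medians run from 5.10 for mitochondrially encoded mRNAs to -1.43 for cytosolic ribosomal proteins, and the points of the ER, sterol and pluripotency lists fall on both sides of 0.

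Long noncoding RNAs listed here as nuclear-retained were moderately higher in nucleoplasm, though not every member is known to stay in the nucleus. Of 10 members tested, 8 were called higher (80%, beside 26.8% over all genes), 0 lower and 2 not called, with a median of 1.26. MALAT1 (chr11:65497688-65506516), which is kept in nuclear speckles, was at 911, 1100.0 and 616 CPM in nucleoplasm and 239, 278 and 226 in cytoplasm (log2 change 1.90, SE 0.24, edgeR adjusted p 1.79e-05). It was at 139 ± 37.9 CPM in chromatin and 83.7 ± 13.8 in nucleus (SD, n = 3), so its mean in the nucleus libraries lay below those of all 3 other fractions. NEAT1, the scaffold of paraspeckles, had the same order at a low level: 10.1 ± 1.24 CPM in nucleoplasm, 3.48 ± 0.661 in cytoplasm, 1.52 ± 0.67 in chromatin and 1.25 ± 0.456 in nucleus. FTX and JPX, which lie beside XIST in the inactivation centre, were higher by 1.71 and 1.08, and TUG1 by 1.43. OIP5-AS1 and MEG3 were the 2 not called. Of 9 RNAs taken as cytoplasmic controls, 8 were lower in nucleoplasm (88.9%, beside 27.4% over all genes) and 0 higher (median -0.92). The control not called was NORAD, a cytoplasmic noncoding RNA, at 277, 253 and 242 CPM against 184, 276 and 280.0 (log2 change 0.15, adjusted p 0.396). ACTB changed by -0.45 (adjusted p 0.0166), and it lost its call in 4 of the 6 leave-one-out fits, without nucleoplasm replicate 1 or 2 or cytoplasm replicate 2 or 3 (adjusted p 0.0586 to 0.081).

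Hosts of small RNAs were called in both directions. Of 20 snoRNA host genes, whose introns carry small nucleolar RNAs, 1 was higher (TAF1D, 0.60) and 9 lower, led by SNHG6 (-1.56), SNHG8 (-1.42) and SNHG5 (-1.35). The shares were 5% and 45%, beside 26.8% and 27.4% over all genes. Without cytoplasm replicate 1 the counts were 4 and 7, and the median went from -0.47 to -0.13. The call for TAF1D was lost in 4 of the 6 leave-one-out fits, without nucleoplasm replicate 2 or 3 or cytoplasm replicate 2 or 3 (adjusted p 0.0597 to 0.107). Among 9 microRNA hosts 2 were higher and 2 lower (22.2% each, beside 26.8% and 27.4% over all genes). MIR17HG, the host of a growth-promoting microRNA cluster, was at 51.4, 54.7 and 40.5 CPM in nucleoplasm and 26.3, 18.9 and 18.7 in cytoplasm (log2 change 1.27, SE 0.19, edgeR adjusted p 9.26e-05). MIR302CHG, the host of a microRNA cluster of pluripotent cells, was not called: 286, 481 and 328 CPM against 527, 219.7 and 178 (0.28, adjusted p 0.533), where cytoplasm replicate 1 was above all nucleoplasm libraries.

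Pluripotency genes were called about as often as genes at large. Of 30 tested, 9 were higher in nucleoplasm (30%, beside 26.8% over all genes), 5 lower (16.7%, beside 27.4%) and 16 not called, with a median of 0.21 beside -0.01. On the TPM scale 16 were higher and 3 lower. The 4 with the largest rises encode surface or secreted proteins: GDF3 (a TGF-β family ligand) 3.51, PODXL 2.77, EPCAM (an adhesion molecule) 2.49 and CD9 (a tetraspanin) 1.85. The list also holds TDGF1, LEFTY1, LEFTY2, NODAL and FGF4, other surface or secreted proteins, and not all of these were called higher. PODXL was at 3916, 4024 and 4057 CPM in nucleoplasm and 452, 651 and 768 in cytoplasm (SE 0.15, edgeR adjusted p 7.22e-09). EPCAM was at 332, 319.7 and 308 CPM against 60.5, 61.3 and 57.6. The transcription factor POU5F1 was on the other side, at 1245, 1115 and 1155 CPM in nucleoplasm and 3613, 2964 and 2817 in cytoplasm (-1.36, SE 0.18, adjusted p 3.15e-05). UTF1 and DPPA2, chromatin-associated factors of the same cells, were both at -1.08. SOX2, a single-exon gene, was higher by 0.72 (298, 350.3 and 301 CPM against 199, 199 and 209). NANOG was not called: 66.6, 67.6 and 71 CPM against 57.2, 95.6 and 95.4 (-0.19, adjusted p 0.346). POU5F1 has near-identical pseudogenes, and how the authors' counting shared such reads is not given in the sources used here.

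Noncoding RNAs of pluripotent cells were called in both directions, 3 higher and 5 lower of 15 (20% and 33.3%, beside 26.8% and 27.4% over all genes). ESRG, the most abundant, was at 1924, 1942 and 2031 CPM in nucleoplasm and 1825, 1764 and 1946 in cytoplasm, with overlapping libraries (0.16, adjusted p 0.27). LNCPRESS2 was higher by 1.37 (188 ± 9.79 CPM against 76 ± 13.8; SD, n = 3). LINC01356 was the lowest of the list, at 7.51, 7.39 and 7.99 CPM against 47.1, 31.7 and 25.5 (log2 change -2.13, SE 0.27, edgeR adjusted p 2.06e-05).

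Among genes with at least 10 CPM and no overlap, the 12 largest falls ran from -2.45 (ENSG00000283103, an antisense gene on chromosome 19) to -2.04 (COX14, an assembly factor of cytochrome c oxidase). POLR2I, a small subunit of RNA polymerase II, was at 17.3, 20.7 and 14.5 CPM in nucleoplasm and 118, 72.4 and 56.1 in cytoplasm (-2.18, SE 0.30, edgeR adjusted p 3.48e-05). DDIT3 (CHOP), a transcription factor of the ER stress response, was at 3.37, 4.34 and 2.76 CPM against 22.5, 16.2 and 11.2 (-2.19, SE 0.28, adjusted p 1.99e-05). RPS27 and TOMM7 (a small subunit of the outer membrane import pore) were at -2.09 and -2.05, and LINC01405 was at -2.12. The highest cytoplasmic value of all 12 genes was in replicate 1. Without it RPS27, TOMM7, LINC01405 and RPS28P7 had changes of -1.26, -1.39, -1.47 and -1.77, all called, and RPL41P5 lost its call (-1.22, adjusted p 0.106). RPS28P7 and RPL41P5 are processed pseudogenes of abundant mRNAs and BOLA2 has a near-identical copy, so their counts are uncertain. Strand-specific counting is not stated, so reads of ENSG00000283103 and of the gene opposite it cannot be told apart.

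Genes of nuclear structure and RNA processing were called in both directions. Of 30 nuclear pore genes, 13 were higher in nucleoplasm and 5 lower (median 0.20). These are 43.3% and 16.7%, beside 26.8% and 27.4% over all genes. Among the highest were NUP210 (2.73) and NDC1 (2.05), membrane proteins of the pore, and RANBP2 (2.04), the large cytoplasmic filament protein. NUP210 was at 279, 298 and 339.7 CPM in nucleoplasm and 44, 46.2 and 56.1 in cytoplasm. SEC13, which the pore shares with ER vesicle coats, had the largest fall (-1.05). For 26 hnRNP genes 2 were higher (7.69%) and 11 lower (42.3%), with HNRNPA1 at -0.48, HNRNPC at -0.57 and HNRNPH1 at 0.61. HNRNPA1 lost its call without nucleoplasm replicate 3 (adjusted p 0.0562), without the mitochondrial genes (0.0565) and on the TPM scale (-0.15, limma adjusted p 0.492), and HNRNPC on the TPM scale (-0.25, 0.134). For 14 SR splicing factors 2 were higher (14.3%) and 3 lower (21.4%), with SRSF9 at -0.85 and SRSF11 at 0.61. Without cytoplasm replicate 1, 1 SR factor was lower. Of 23 mRNA export factors, 13 were lower (56.5%) and 5 higher (21.7%). NXT1, the small partner of the export receptor, was lowest (-1.26) and THOC2, the large THO scaffold, highest (1.39). Of 16 nonsense-mediated decay factors, 4 were higher, led by the kinase SMG1 (1.66), and 3 lower, led by RNPS1 (-0.83), shares of 25% and 18.8% beside 26.8% and 27.4% over all genes. The hnRNP count was 7 when the mitochondrial genes were left out of the scaling and 4 on the TPM scale, in place of 13, and the hnRNP median of -0.28 was 0.02 on the TPM scale.

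Most cell cycle and other regulatory lists also had calls in both directions, as genes at large had. Of 35 mitosis genes, 12 were lower (34.3%, beside 27.4% over all genes) and 6 higher (17.1%, beside 26.8%). The 6 higher all lay between 1.75 and 2.21: MKI67, CENPE, CENPF, ANLN, ASPM and KIF20B, which encode large structural or motor proteins. The motors KIF11, KIF20A, KIF23, KIF4A and KIF18A, on the same list, were not called higher. CENPF was at 415, 374 and 331 CPM in nucleoplasm and 80.7, 110.4 and 112 in cytoplasm (1.96, SE 0.43, edgeR adjusted p 0.00167). UBE2C, the small ubiquitin-conjugating enzyme of anaphase, had the largest fall, at 62.4, 60.6 and 60.1 CPM against 208, 131 and 114 (-1.26). Of 17 histone genes 12 were lower (70.6%, beside 27.4% over all genes) and 0 higher (median -0.75). The lower ones included the variants H2AZ1 (-0.95) and H3-3B (-0.65). Among 33 immediate early genes, 5 were higher (15.2%) and 8 lower (24.2%), both below the shares over all genes. The secreted matricellular proteins CCN1 and CCN2 were the highest (2.53 and 2.38), and NR4A1, a nuclear receptor, the lowest (-1.03). CCN1 was at 125, 142 and 136 CPM in nucleoplasm and 26.4, 21.4 and 25.4 in cytoplasm. Actins and tubulins were lower in 17 of 19 cases (89.5%, beside 27.4% over all genes), and the 2 higher genes were the actinins ACTN4 (1.28) and ACTN1 (0.76). Replication licensing (2 higher and 5 lower of 25), polycomb (4 and 5 of 25), heat shock chaperones (1 and 8 of 23) and CLK kinases (0 and 1 of 3) had more members uncalled than called. The shares were 8% and 20% for licensing, 16% and 20% for polycomb and 4.35% and 34.8% for the chaperones. HSPB1 was the lowest of the chaperones (-1.63).

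Few of the lineage markers could be measured. Of 4 ectoderm markers tested, 1 was higher (NES) and 1 lower (FABP7, a fatty acid binding protein, -0.91), of 3 mesoderm markers 1 was higher (KDR) and 1 lower (TBX6, a T-box factor, -0.96), and the 1 endoderm marker tested was higher (KIT). KDR, a VEGF receptor listed as a mesoderm marker, was at 290.1, 273 and 282 CPM in nucleoplasm and 20.5, 28.2 and 32.5 in cytoplasm (3.46, SE 0.14, edgeR adjusted p 1.66e-09). KIT, listed for endoderm, was at 71.2, 72.6 and 74.8 CPM against 8.6, 7.96 and 11 (3.06). NES, the neural intermediate filament, was at 374 ± 55.2 CPM against 311 ± 26.8 (0.34, adjusted p 0.0458; SD, n = 3). In bulk RNA, a few cells with much of a transcript and many cells with little cannot be told apart.

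Single transcripts were tested to see which isoforms carried the differences. Of 28897 transcripts, 29.7% were called: 4610 were higher in nucleoplasm (16%) and 3971 lower (13.7%). Transcripts listed in Ensembl and new isoforms of Ensembl genes leaned in different directions: 2637 of 17406 listed transcripts were higher and 3503 lower (median -0.15), while 1925 of 11212 new isoforms were higher and 438 lower (median 0.45). Listed transcripts that GENCODE types as retained introns, which keep an intron in the mature RNA, had 135 of 525 higher and 32 lower (median 0.58). Those typed as targets of nonsense-mediated decay had 12 of 366 higher and 47 lower (median -0.39). On the TPM scale 5984 transcripts were higher and 2453 lower, 70.9% higher in place of 53.7%. Upper-quartile scaling turned the split, with 4008 higher and 4849 lower (45.3%), and library totals gave 50.6% higher. How reads shared by isoforms were assigned is not given in the sources used here, which makes isoform counts more uncertain than gene sums.

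In 286 of the 6594 genes with 2 or more tested isoforms, 1 isoform was called higher and another lower, and in 130 both had at least 10 CPM where they were higher. In 70 of these 130 the gene sum was not called, beside 6397 of 13987 gene sums not called over all genes. The widest gaps by log2 change were in NPIPB5, ENSG00000290960, UFD1, MYH9 and MBD1. For UFD1, a cofactor of ER-associated degradation, a new isoform stood at 12, 10.6 and 12 CPM in nucleoplasm and 0, 0.535 and 0 in cytoplasm, while another stood at 9.16, 6.7 and 7.83 against 23.1, 20.8 and 14.1 (-1.24, adjusted p 0.00784). For NPIPB5, of a family of near-identical copies on chromosome 16, one isoform was higher by 2.09 and another, at 0 counts in nucleoplasm, was at least 67.6-fold lower (floor of 3 counts per library). MYH9, nonmuscle myosin, had its main isoform at 0.63, a call lost in 3 of the 6 leave-one-out fits (adjusted p 0.0567 to 0.0936). A minor one held 72, 54.7 and 29.2 CPM in cytoplasm against 0, 2.07 and 0. For MBD1, a reader of methylated DNA, the isoforms were at 0.78 and -5.86, called in 2 and 4 of those 6 fits. The call of the lower MBD1 isoform was also lost with replicate number added to the model.

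GAS5 and NFE2L1, chosen after their values were seen, have isoforms well above the floor in both fractions. In GAS5, a growth-arrest snoRNA host, a retained-intron transcript was at 30.9, 39.1 and 29.2 CPM in nucleoplasm and 4.44, 2.41 and 2.39 in cytoplasm (3.50, SE 0.32, edgeR adjusted p 2.99e-05). Another transcript stood at 24, 21.5 and 22.6 CPM against 143, 70.8 and 61.8 (-1.96), and the sum of the gene was not called (-0.45, adjusted p 0.0765). NFE2L1, an ER-anchored transcription factor, had a coding isoform at 58.7, 75.4 and 62 CPM in nucleoplasm and 7.92, 5.35 and 6.77 in cytoplasm (3.36, adjusted p 7.56e-06). A second coding isoform was at 12.7, 17.6 and 18.3 CPM against 58.2, 57.5 and 69.4 (-1.87, adjusted p 0.000191). These GAS5 and NFE2L1 isoform calls held in 6 of 6 leave-one-out fits.

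**Figure D4:**
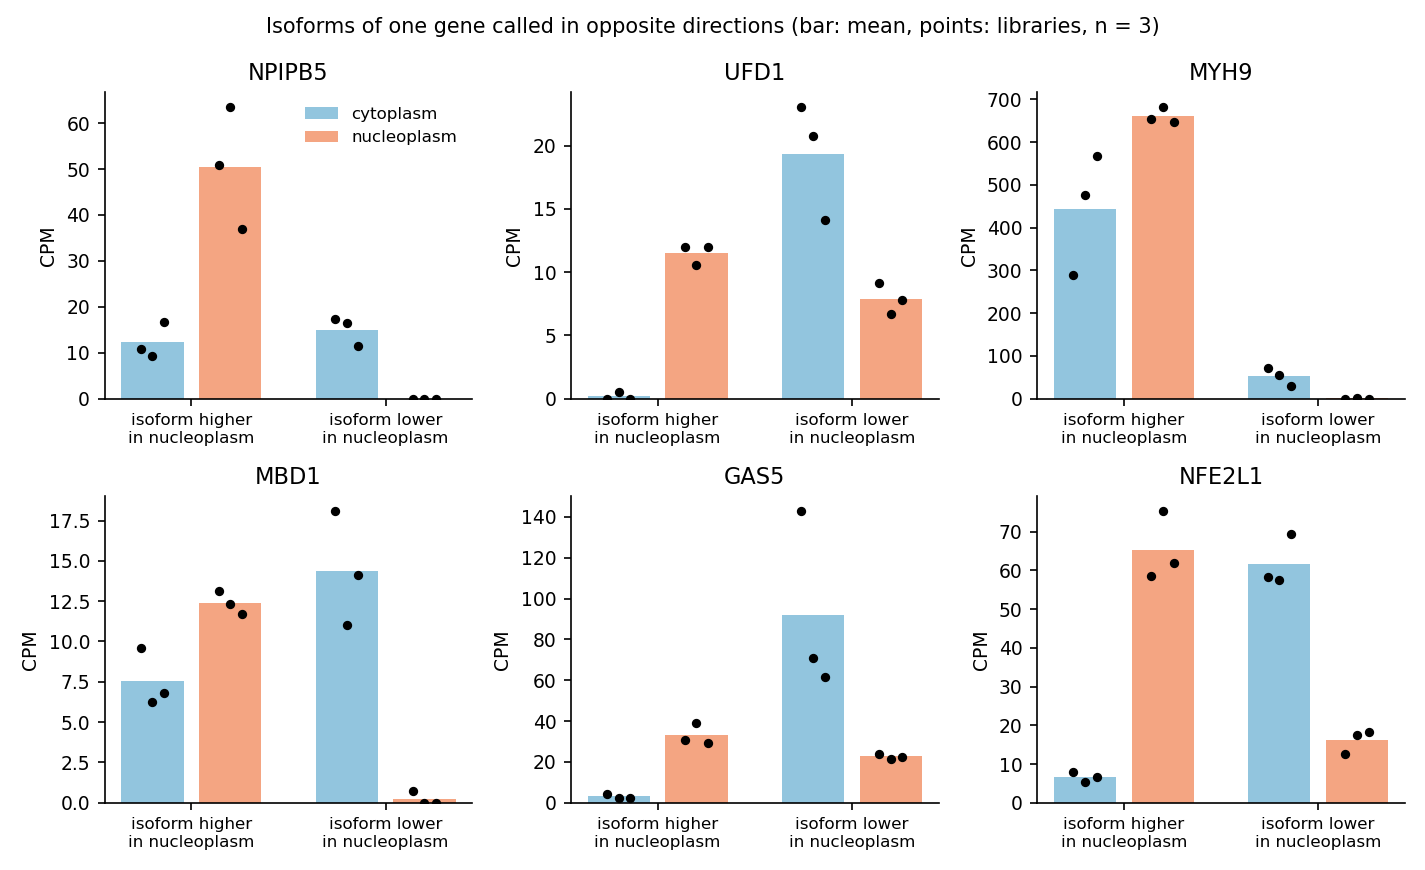
CPM of the isoform that was higher and the isoform that was lower in nucleoplasm, for 6 genes, in the 3 cytoplasm and 3 nucleoplasm libraries (points; bars show the mean, from 0). In NFE2L1 the first isoform is at 65.4 CPM on average in nucleoplasm and 6.68 in cytoplasm, and the second at 16.2 and 61.7.

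The largest transcript changes were of isoforms at 0 counts in one fraction. Isoforms of HNRNPA2B1, ATXN2L, DDR1 and HAS3 had 0 counts in all cytoplasm libraries and were at least 279-fold, 124-fold, 114-fold and 104-fold higher in nucleoplasm. The HNRNPA2B1 isoform was at 95.6, 55.5 and 60.8 CPM there, while the gene sum was not called (0.07, adjusted p 0.643). A CHD4 isoform was at least 221-fold higher but rested on 2 libraries (0.239, 68.2 and 99.3 CPM), and its call was lost in 3 of the 6 leave-one-out fits, those without a cytoplasm library (adjusted p 0.0571 to 0.0624). In the other direction a GPRIN2 isoform, at 23.1, 24.7 and 15.9 CPM in cytoplasm, was at least 95.6-fold lower in nucleoplasm, and a UBAP2L isoform at least 196-fold, called in 3 of those 6 fits. With replicate number added to the model, the CHD4 and UBAP2L isoforms also lost their calls (edgeR adjusted p 0.0715 and 0.0538). The floor is 3 counts per library.

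The same fractions of ectoderm and endoderm cells, derived from these stem cells in culture, show where the hPSC differ. Their tables come from separate assemblies, so cell type and assembly change together, and the 11281 genes shared by the 3 cell types and tested were put in 1 model, whose hPSC values differ slightly from those above. In it 66.3% of genes were called between the fractions of hPSC (33.6% higher in nucleoplasm, 32.7% lower), 52.5% in ectoderm (27.9% and 24.5%) and 76.2% in endoderm (37.4% and 38.8%). The change from cytoplasm to nucleoplasm differed between hPSC and ectoderm in 29.8% of genes and between hPSC and endoderm in 38%. It was larger in hPSC than in ectoderm for 2101 genes (18.6%) and smaller for 1263 (11.2%). Against endoderm it was larger for 1968 (17.4%) and smaller for 2322 (20.6%). With library totals in place of TMM, the ectoderm split was 1644 and 1697, and against endoderm 6849 were larger and 786 smaller, with the median gene shifted by 0.72. Upper-quartile scaling gave 2767 larger and 1953 smaller against endoderm, and DESeq2 1533 and 2784, so the endoderm split depends on the scaling.

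The hPSC medians of the mitochondrial mRNA, matrix and ER lists lay between those of the other cell types with TMM scaling. The 13 mitochondrial mRNAs had medians of 2.81 in ectoderm, 5.16 in hPSC and 5.83 in endoderm. All 13 differences between hPSC and ectoderm were called, and 7 were called smaller in hPSC than in endoderm (3 with library totals). The mitochondrial ribosomal RNAs had medians of 2.85, 4.30 and 4.24. Matrix genes had medians of 2.21, 3.34 and 5.50 in the same order, with 27 of 32 called larger in hPSC than in ectoderm and all 32 called smaller than in endoderm, 30 of 32 with library totals. The ER machinery had medians of 0.51, 1.92 and 2.18. Of its 40 genes 31 were called larger in hPSC than in ectoderm, and 21 smaller and 4 larger than in endoderm. With library totals that last count was 10 smaller and 16 larger, so its direction against endoderm flips with the scaling. The median difference, hPSC minus endoderm, was -0.74 for the mitochondrial mRNAs, -2.25 for the matrix genes and -0.45 for the ER machinery with TMM, beside 0.00 over all genes. With library totals these were 0.00, -1.53 and 0.27, beside 0.72 over all genes. Cytosolic ribosomal proteins had medians of -1.18, -1.38 and -1.62, and with TMM 1 of 79 was called larger and 2 smaller against ectoderm, and 11 larger and 1 smaller against endoderm. Over all genes with TMM, 17.4% were larger and 20.6% smaller against endoderm. With library totals, 64 of the 79 were called larger and 1 smaller against endoderm, beside 6849 larger and 786 smaller of 11281 genes. Their median difference was then 0.97, beside 0.72 over all genes.

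**Figure D5:**
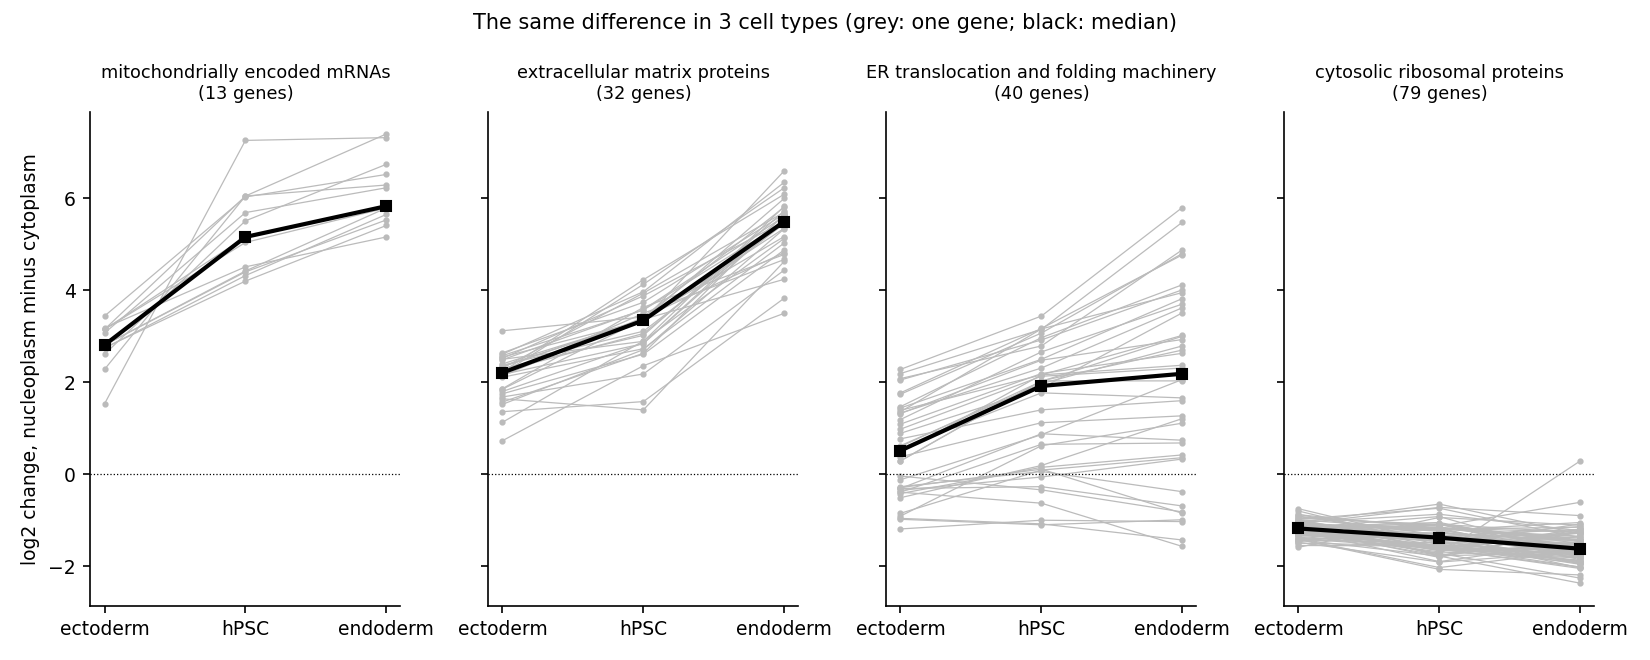
Log2 change between nucleoplasm and cytoplasm of each gene (grey lines) and the median (black) in ectoderm, hPSC and endoderm for 4 lists, from 1 model with TMM scaling. The medians of the matrix genes are 2.21, 3.34 and 5.50, and those of the cytosolic ribosomal proteins stay between -1.18 and -1.62.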

How the data were processed

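Counts per assembled transcript were deposited by the authors as whole numbers, and TPM values in a second table. STAR, RSEM and hg38 are named in the submitters' processing notes with no roles or versions, so the counts may be rounded estimates. Rows were summed per Ensembl gene (32819 transcripts, 15115 genes). The main test was edgeR 4.0.16 quasi-likelihood on all 12 hPSC libraries (TMM, filterByExpr with a minimum count of 10, two-sided, Benjamini-Hochberg, R 4.3.3). It was also run on simulated counts with few genes changed, equally many each way, and a fixed spread. That setting is simpler than these libraries, so it does not show how the test behaves where most genes change. An SE is the log2 change over the root of F. Alternatives used DESeq2 1.42.0, limma 3.58.1 on log2(TPM + 1), other scalings and left-out libraries. Counts without an Ensembl gene were 4.683% to 7.733% of nucleoplasm and 0.911% to 9.357% of cytoplasm libraries and stayed out of gene sums. 1 column that matches no sample was not used. Gene types come from GENCODE 29, matched for 97% of genes. No protein table was given, so coding-start codons, chosen after seeing the data, replaced protein hydropathy.

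Members and lists were chosen with earlier results of these data known. Named genes were the 12 largest changes each way among called genes with 10 CPM or more and no overlap, the most abundant and most changed of each list, the 5 largest isoform changes each way, the 5 widest isoform gaps, and the 3 largest cell type differences each way. Some genes that this rule picks are not reported here. Same-numbered replicates correlated at -0.03, 0.05 and 0.084 after group means were removed, so numbers were not taken as pairs.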

Additional observations from a re-analysis of the deposited data

Results flagged for a closer look

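The change between nucleoplasm and cytoplasm differed between hPSC and ectoderm in 3364 genes and between hPSC and endoderm in 4290, by edgeR's test of the difference with an adjusted p under 0.05. The genes named below had the largest differences on the log2 scale, hPSC minus the other cell type. Several rest on groups at 0 counts, where the fitted size depends on the prior count and is no bound, and assembly changes with cell type. CPM here is scaled to the total over the shared genes.

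Against ectoderm, ENSG00000263244 differed by -10.15 and TSPEAR-AS2 by -8.39. Both had 0 counts in ectoderm cytoplasm and were in ectoderm at least 71.6-fold and 22.7-fold higher in nucleoplasm, while in hPSC they changed by 0.43 and 0.30. Those bounds rest on uneven ectoderm nucleoplasm libraries, at 29.8, 0 and 12.9 CPM for ENSG00000263244 and 3.79, 8.88 and 0.905 for TSPEAR-AS2. PVRIG2P differed by -4.54 (adjusted p 0.0333), a call lost in 5 of the 12 leave-one-out fits. RN7SL1 differed by 6.02 (SE 0.62, adjusted p 4.71e-07): in ectoderm it was at 15.3, 33.1 and 17.1 CPM in nucleoplasm and 581, 1215 and 1499 in cytoplasm, and in hPSC at 479, 1559 and 1035 against 907, 1098 and 551. MT-ATP8 differed by 5.74. ENSG00000280441 differed by 8.05 against ectoderm and 6.92 against endoderm, but its hPSC nucleoplasm libraries held 7.82, 4912 and 3.19 CPM, so 1 library carries it. Without that library the differences were -0.22 and -1.35.

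Against endoderm, SLX1A differed by -9.01, ZNF135 by -6.87 and ENSG00000274333 by -6.83, all at 0 counts in endoderm cytoplasm, with endoderm nucleoplasm at least 11-fold, 6.24-fold and 6.07-fold higher. SLX1A and ENSG00000274333 were seen in endoderm nucleoplasm replicate 2 only, and without it they differed by -0.61 and 0.72, not called. U2AF1, a splicing factor with a second copy in the reference genome build, differed by 10.94 and SMG1P5 (ENSG00000291266) by 8.31. Both had 0 counts in endoderm nucleoplasm, at least 57.2-fold and 20.1-fold lower than in cytoplasm, while the hPSC changes were 0.71 and -0.42. A separate entry with the name SMG1P5, ENSG00000183604, was higher in hPSC nucleoplasm (log2 change 1.96, edgeR adjusted p 1.34e-05). How reads were shared between the entries is not given in the sources used here.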

How the results depend on the processing

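Counts of called genes kept within 1.5 times of 7590 for gene sums and 8581 for transcripts in every alternative except a required 2-fold change (3612 gene sums). That requirement left 1086 differences against ectoderm and 1422 against endoderm, and library totals without TMM gave 7635 against endoderm. The replicate block gave 7548 gene sums. Leaving out 1 library gave 6580 to 7182 gene sums, 6761 to 7775 transcripts, 2709 to 3708 differences against ectoderm and 3735 to 4743 against endoderm. On the TPM scale the called members were 5 of the glycolytic enzymes, 4 hnRNP, 7 histone, 14 polycomb and 12 actin or tubulin genes, in place of 14, 13, 12, 9 and 19. Other changed counts were 7 hnRNP genes without mitochondrial genes, 11 licensing genes with upper-quartile scaling (in place of 7) and 15 polycomb genes from 6 libraries only. With 1 library left out, SR factors ranged from 2 to 5, CLK kinases from 0 to 1, hnRNP genes from 8 to 12 and microRNA hosts from 1 to 4. The mitochondrial lists have no value where their genes are left out.

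Of 178 single genes, isoforms and differences, 142 kept direction and call in every alternative, 36 lost a call in at least 1, and 4 results reversed. CCNB1 (-0.28) turned to 0.02 on the TPM scale. ENSG00000280441 ranged from -0.22 to 8.64 against ectoderm and -1.35 to 7.50 against endoderm, and ENSG00000274333 from -7.48 to 0.72, when 1 library was left out. The causes of these moves were not tested.

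Depth limits isoforms most: a floor of 3 counts per library sets the bounds given for isoforms at 0.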

Other observations

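A small set of RNAs was higher in the hPSC nucleoplasm than in all 3 other fractions, not only than in cytoplasm. Of 9634 genes with at least 10 CPM in nucleoplasm, 38 had a nucleoplasm mean at least 2-fold above the means of cytoplasm, chromatin and nucleus, with no overlap with any of those libraries, and 31 of them are protein-coding. The set was picked by these values, so no test goes with it. Chromatin replicate 3 was far below the other chromatin libraries for many of them (RANBP2 203, 181 and 21.6 CPM), and in an alternative added after seeing the data, without it, 17 of the 38 fell under 2-fold over chromatin, RANBP2 and SEC63 among them. It holds MALAT1 and NEAT1, and beside them mRNAs such as CENPF (373 CPM in nucleoplasm, 101 in cytoplasm, 99.5 in chromatin and 58.4 in nucleus), RANBP2 (345, 89.5, 135 and 54.5 in the same order), RIF1, a telomere and replication timing factor (105, 26.6, 29.5 and 8.69), KIF20B, a mitotic kinesin (48.2, 11, 3.74 and 2.3), and the Golgi coiled-coil protein GOLGA4 (30.3, 2.61, 6.85 and 2.81). SEC62 and SEC63, partners of the ER translocon, are also among them (140.3 and 149.9 CPM in nucleoplasm, 35 and 36.5 in cytoplasm). The matrix and ER lists, by contrast, summed higher in nucleus than in nucleoplasm.

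Classes taken from gene names and types leaned differently from the protein-coding genes, of which 27.3% were higher and 28.9% lower in nucleoplasm. Genes for ZNF proteins, the large zinc finger family, had 92 of 420 higher and 63 lower (median 0.14). LINC genes had 16 of 125 higher and 36 lower (median -0.29), genes named as antisense 25 of 224 higher and 55 lower (median -0.21), and genes named as divergent or intronic 12 of 122 higher and 38 lower (median -0.41). Sense-intronic genes, which lie within introns of other genes, had 17 of 43 higher and 2 lower (median 0.62), and unprocessed pseudogenes 22 of 48 higher and 4 lower (median 0.51). Strand-specific counting is not stated, so reads of overlapping genes cannot be told apart.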
